A study of Mus musculus with 12 samples.

Results

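The 10 genes described here encode liver enzymes of alcohol and aldehyde metabolism. They were the alcohol dehydrogenases Adh1, Adh4 and Adh5, the aldehyde dehydrogenases Aldh1a1, Aldh1a7, Aldh1b1, Aldh1l1, Aldh2 and Aldh3a2, and the aldo-keto reductase Akr1c6. They were chosen by symbol from the 17859 genes to which the deposited tables give a symbol, and joined to the count table by Ensembl identifier. All 10 were among the 8594 genes that passed the filter on low counts. In the test across the 4 groups of mice 1 of the 10 passed, where 1.42% of all genes did. This was Aldh3a2, which encodes the fatty aldehyde dehydrogenase. It also passed as lower in CITCO-treated hCAR/hPXR mice than in CITCO-treated WT mice (0.407% of all genes passed there). Its means were 65.5 CPM (the TMM-normalised read count scaled to library size) against 145. Both calls were lost when certain single libraries were left out, and the first also under some other settings. The other 9 did not pass in any comparison by this test (edgeR).

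The libraries were made from liver RNA of 12 male mice on a C57BL/6NTac background, 3 in each group. WT mice were given corn oil or CITCO, a compound that activates human CAR. The study cites in vitro work which proposes that CITCO also activates human PXR. In hCAR/hPXR mice the mouse nuclear receptors Car and Pxr were replaced by their human counterparts, and Car KO/hPXR mice lack Car and carry human PXR; both were given CITCO. CITCO was injected into the peritoneum daily for 4 days, at 10 mg/kg by the labels, and livers were taken on day 5; the methods of the study list a further, higher dose of CITCO. The 3 corn oil libraries all come from WT mice, so that the response to CITCO and the genotype cannot be told apart in either humanised group, and nothing in the labels ties mice to litters or cages, so that p-values measure the spread between these mice.

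Alcohol dehydrogenases oxidise alcohols to aldehydes, and aldehyde dehydrogenases oxidise aldehydes further to acids, both with a nicotinamide cofactor. In hepatocytes the pair of reactions clears ethanol through acetaldehyde to acetate and turns retinol into retinaldehyde and retinoic acid, and related enzymes handle formaldehyde bound to glutathione or folate and the long-chain aldehydes released from lipids. CAR and PXR are nuclear receptors that sense foreign compounds and switch on genes of drug metabolism, of which Cyp2b10 is the usual marker for CAR.

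The labels held against the receptor genes. Mouse Nr1i3, which encodes Car, had 104 to 287 counts in the WT libraries and 0 to 6 in the humanised ones, and Nr1i2, which encodes Pxr, had 100 to 199 and 0 to 2. Cyp2b10 had 281, 288 and 184 counts in the hCAR/hPXR libraries and 0 to 6 in the other 9. Library totals were 1167008 to 2341557 counts, at which 3 counts equal 1.34 to 2.505 CPM, and the 10 genes had 58 to 4286 counts in a library, so that none was near that floor. All 6 hepatocyte markers were among the genes tested. So were 9 of 9 Kupffer cell, 7 of 7 endothelial and 5 of 7 stellate cell markers. Of the others 5 of 6 red blood cell, 4 of 6 leukocyte and 1 of 5 cholangiocyte markers were tested. The cholangiocyte marker Krt19 and the T cell marker Cd3e had 0 to 3 counts.

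The 10 genes lie on 7 chromosomes (GRCm38, GENCODE M21). Adh1 (chr3:138260991-138290698), Adh4 (chr3:138415466-138430892) and Adh5 (chr3:138443093-138455499) stand on the plus strand of the alcohol dehydrogenase cluster, where Adh4 and Adh5 are 12.2 kb apart. Aldh1a1 (chr19:20492715-20643465, plus strand) and Aldh1a7 (chr19:20692953-20727562, minus strand) are 49.5 kb apart. The others are Aldh1b1 (chr4:45799022-45804604, plus), Aldh2 (chr5:121566027-121593824, minus), Aldh1l1 (chr6:90486427-90600203, plus), Aldh3a2 (chr11:61223417-61267464, minus) and Akr1c6 (chr13:4434306-4457877, plus).

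RefSeq promoters (GRCm38.p6, 250 bases before to 50 after the start, on the strand of the gene) were matched for 9 of the 10 genes, the exception being Aldh2. The 3 promoters printed here belong to Aldh3a2, the gene that passed the test, and to Aldh1l1 and Aldh1b1, the genes that came nearest to it. Capitals mark the matches, on either strand, to the motifs searched.
Aldh3a2, chr11:61267137-61267436, minus strand: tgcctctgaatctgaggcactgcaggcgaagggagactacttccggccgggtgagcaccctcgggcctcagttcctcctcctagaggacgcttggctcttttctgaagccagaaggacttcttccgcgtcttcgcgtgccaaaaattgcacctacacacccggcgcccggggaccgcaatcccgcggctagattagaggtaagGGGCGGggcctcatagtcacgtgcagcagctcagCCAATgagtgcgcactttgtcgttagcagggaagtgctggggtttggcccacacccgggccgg
Aldh1l1, chr6:90550543-90550842, plus strand: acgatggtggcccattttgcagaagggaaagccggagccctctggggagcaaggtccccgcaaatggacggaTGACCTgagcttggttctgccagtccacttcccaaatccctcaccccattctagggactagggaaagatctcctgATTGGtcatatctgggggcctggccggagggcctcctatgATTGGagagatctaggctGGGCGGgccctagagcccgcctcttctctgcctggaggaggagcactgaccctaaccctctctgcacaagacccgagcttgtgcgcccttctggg
Aldh1b1, chr4:45798772-45799071, plus strand: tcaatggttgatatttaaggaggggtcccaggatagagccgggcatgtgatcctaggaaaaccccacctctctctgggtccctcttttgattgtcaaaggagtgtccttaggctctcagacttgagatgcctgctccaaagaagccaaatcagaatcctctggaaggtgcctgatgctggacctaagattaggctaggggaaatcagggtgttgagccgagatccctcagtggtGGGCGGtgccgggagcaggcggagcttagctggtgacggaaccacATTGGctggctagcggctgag

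In the Aldh3a2 promoter the capitals are a GC box (GGGCGG) that begins at position -47 from the start and a CCAAT box (CCAAT) at -13. Neither is rare, since 35.7% of all 32851 RefSeq promoters of this length hold a GC box and 37.4% a CCAAT box. The Aldh1l1 window lies within the gene interval given above, at an internal start and not at the first base of the gene. This promoter holds a GC box, 2 CCAAT boxes read on the other strand as ATTGG, and the nuclear receptor half-site AGGTCA, read on the other strand as TGACCT, at -178. That half-site is in 16.3% of all promoters and in 2 of the 11 promoters listed for the 9 genes, the other being Adh4, which holds it at -133 and -11. The half-site AGTTCA (14% of all promoters) had no match in the 11, nor did 3 paired sites: AGGTCA repeated after 1 base (0.0396%), AGTTCA repeated after 4 bases (0.0122%), and TGAACT followed after 6 bases by AGTTCA (0.00609%). The TATA box (TATAAA, 13.6%) had a match in 3. In the Aldh1b1 promoter the capitals are a GC box at -16 and a CCAAT box on the other strand at 30. A match is a run of letters and not a measured binding site.

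Aldh1a1 and Aldh1a7 are neighbouring copies of a retinaldehyde dehydrogenase gene. Promoters of both are printed with the longest run they share in capitals, to show how alike these windows are. The Aldh1a1 window printed lies within the gene interval given above, at an internal start. A further promoter listed for Aldh1a1 (chr19:20492333-20492632), just before that interval, was not compared.
Aldh1a1, chr19:20601718-20602017, plus strand: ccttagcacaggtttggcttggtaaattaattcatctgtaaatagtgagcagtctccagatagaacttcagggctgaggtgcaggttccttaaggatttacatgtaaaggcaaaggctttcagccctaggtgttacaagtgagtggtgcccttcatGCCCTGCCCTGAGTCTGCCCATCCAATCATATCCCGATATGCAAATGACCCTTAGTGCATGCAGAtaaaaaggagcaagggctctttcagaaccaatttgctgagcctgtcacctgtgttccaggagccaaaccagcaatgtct
Aldh1a7, chr19:20727507-20727806, minus strand: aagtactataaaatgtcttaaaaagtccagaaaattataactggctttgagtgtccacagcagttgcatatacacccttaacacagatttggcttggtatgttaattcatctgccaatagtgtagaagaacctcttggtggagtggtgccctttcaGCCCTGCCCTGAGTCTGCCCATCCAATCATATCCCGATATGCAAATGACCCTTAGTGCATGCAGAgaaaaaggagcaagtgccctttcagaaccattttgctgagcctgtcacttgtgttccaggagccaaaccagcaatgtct

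The shared run was 65 bases long, from position -94 to -30 in both genes. The windows were identical at 177 of 300 positions (59%), and their last 150 bases at 142 (94.7%). For reads from the 3' ends of transcripts the likeness of the transcripts matters, and not that of the promoters. Of all 50-base words in the last 500 bases of the protein-coding transcripts, 8.18% of those of Aldh1a1 were also in a transcript of Aldh1a7, 2.22% of those of Akr1c6 were also in Akr1c20, and 0 of those of the other 8 genes were in another gene. In the count table, 1 of 12 libraries held a fractional estimate for Aldh1a1 and for Aldh1a7 and 4 of 12 for Akr1c6, so that a small part of the reads of these 3 genes was divided between copies. Whether counting used strand is not given in the sources used here. Of the overlapping genes counted in the table, the antisense gene Gm16559 at Adh1 had 0 to 13 counts and those at Aldh1l1 and Aldh2 had 0 to 3.

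Among the alcohol dehydrogenases, Adh1 encodes the class I enzyme, which carries most of the oxidation of ethanol in liver. Adh1 was at 898.4, 829.9 and 965 CPM in WT corn oil, 979.5, 948 and 1138 in WT CITCO, 1013, 673 and 719.8 in hCAR/hPXR CITCO and 1076, 1050.4 and 1082 in Car KO/hPXR CITCO. The Car KO/hPXR libraries were the tightest, with an SD of 16.6 CPM, and all 3 lay above the hCAR/hPXR libraries, of which 1 reached the WT range. The log2 fold change of hCAR/hPXR over Car KO/hPXR was -0.41 ± 0.17 (SE) and did not pass (edgeR, adjusted p = 0.373).

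Adh4 encodes the class II enzyme, which acts on retinol and larger alcohols. Its means were 81.8 ± 5.94 CPM in WT corn oil, 99.9 ± 20.3 in WT CITCO, 87.0 ± 28.8 in hCAR/hPXR CITCO and 92.9 ± 17.7 in Car KO/hPXR CITCO (SD, n = 3), and every pair of groups overlapped.

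Adh5 encodes the class III enzyme, which oxidises the adduct of formaldehyde with glutathione and reduces S-nitrosoglutathione. It was at 128, 130.4 and 162 CPM in WT corn oil, 166, 241 and 174 in WT CITCO, 149.7, 131 and 162 in hCAR/hPXR CITCO and 166, 181 and 159 in Car KO/hPXR CITCO. The WT CITCO libraries were above both the corn oil and the hCAR/hPXR libraries without overlap, although the nearest libraries of these groups differed by under 5 CPM. The log2 fold change was 0.47 ± 0.17 for WT CITCO over corn oil (edgeR, adjusted p = 0.368) and -0.40 ± 0.17 for hCAR/hPXR over WT CITCO (adjusted p = 0.493). Neither passed the test.

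**Figure D1:**
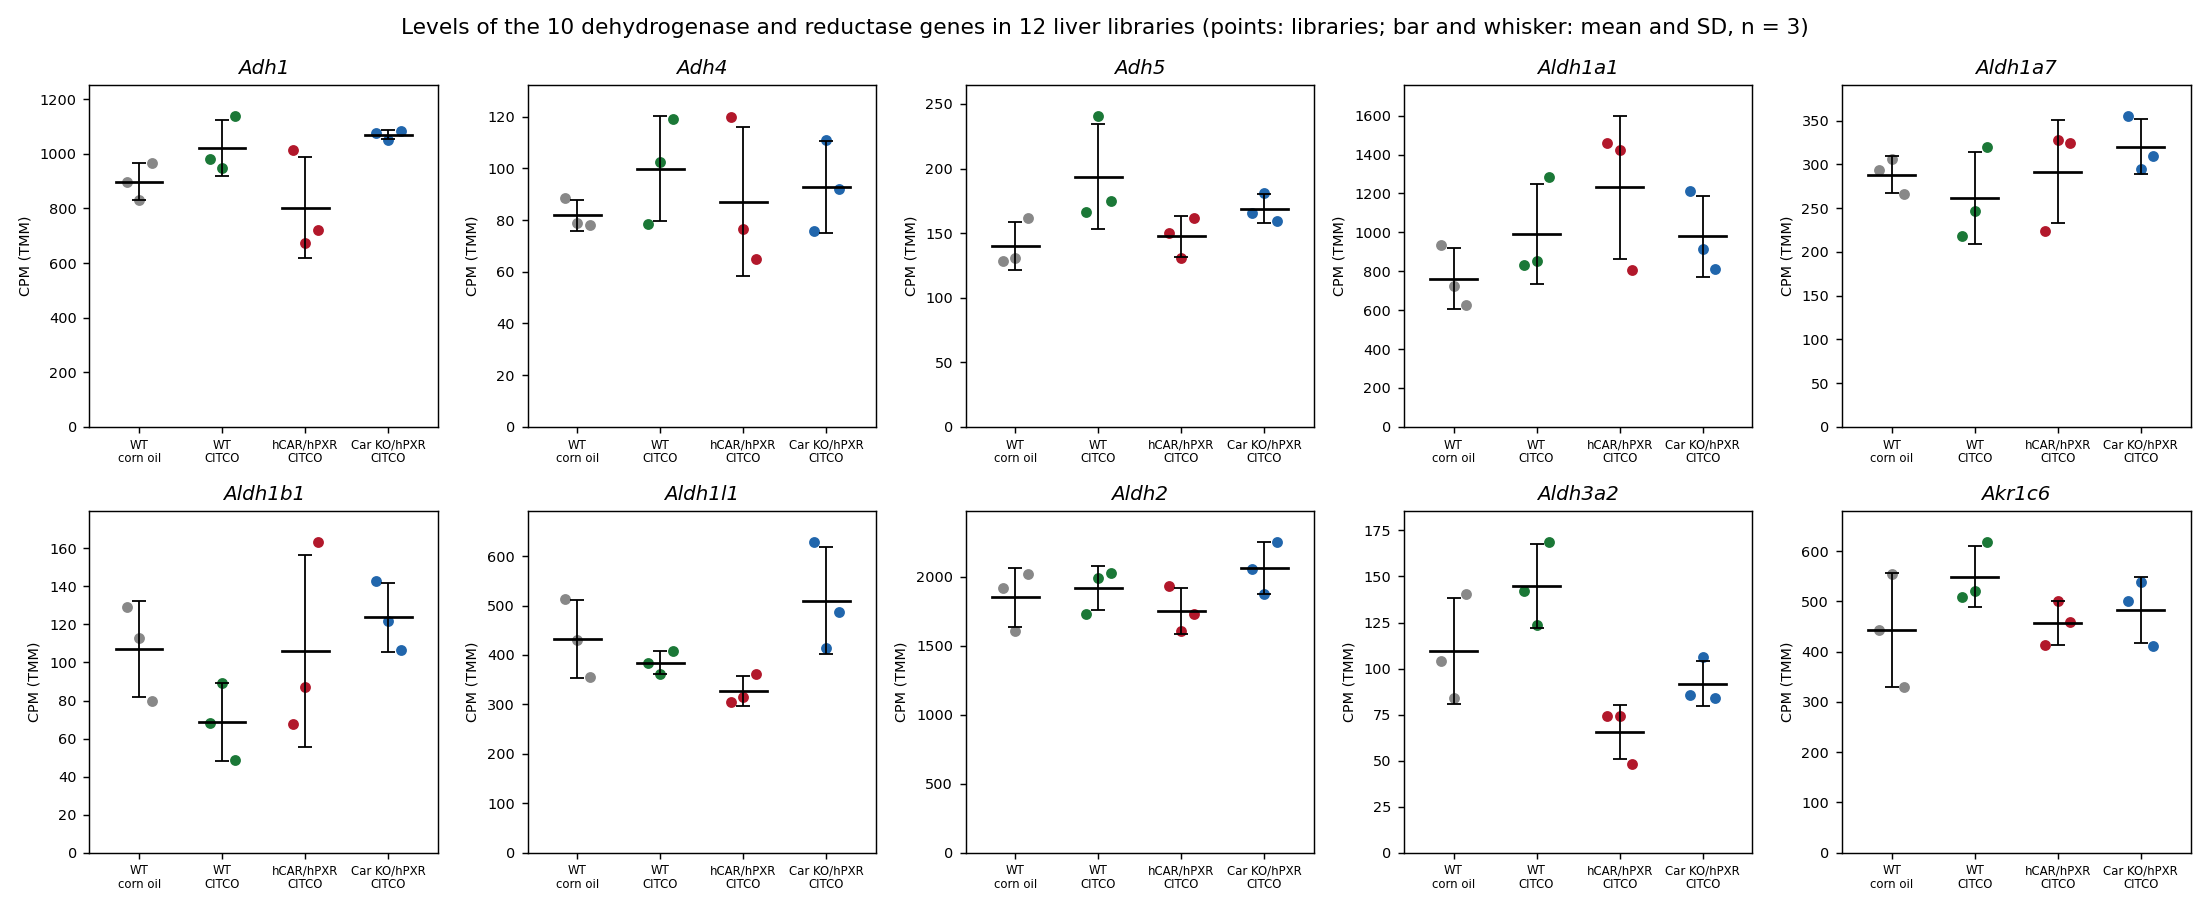
Levels of the 10 genes in each of the 12 libraries, in TMM-normalised CPM on axes that start at 0, with 1 panel per gene; points are libraries in the order of their replicate numbers, and bars and whiskers are the mean and SD of 3. The 3 hCAR/hPXR points of Aldh3a2, at 48.4 to 74.1 CPM, lie under all points of the other groups, whereas the groups of Aldh2, Aldh1a7, Aldh1a1 and Adh4 overlap.

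Aldh2 encodes the mitochondrial enzyme that oxidises acetaldehyde from ethanol. It was the steadiest of the 10 genes over the groups, with means of 1850.2 ± 214 CPM in WT corn oil, 1917 ± 160.0 in WT CITCO, 1754 ± 166 in hCAR/hPXR CITCO and 2062 ± 188 in Car KO/hPXR CITCO (SD, n = 3), the highest being 1.18 times the lowest. Over the 4 comparisons the 95% intervals of its log2 fold change ran from -0.58 to 0.45, so that a change much over 1.5-fold lay outside them.

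Aldh1b1 encodes a second mitochondrial aldehyde dehydrogenase, close to Aldh2 in sequence. It was at 129, 113 and 79.7 CPM in WT corn oil, 68.1, 89.2 and 48.5 in WT CITCO, 67.9, 87.4 and 163 in hCAR/hPXR CITCO and 143, 122 and 107 in Car KO/hPXR CITCO. The WT CITCO libraries were all under the Car KO/hPXR libraries, and the hCAR/hPXR group held 2 libraries at the WT CITCO level and 1 above every other library. The log2 fold change over WT CITCO was 0.85 ± 0.28 for Car KO/hPXR (edgeR, adjusted p = 0.278) and 0.61 ± 0.28 for hCAR/hPXR (adjusted p = 0.559), and that of WT CITCO over corn oil was -0.65 ± 0.28 (adjusted p = 0.497). None passed. Without the third hCAR/hPXR library the value for hCAR/hPXR over WT CITCO was 0.17.

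Aldh1a1 encodes the cytosolic retinaldehyde dehydrogenase and Aldh1a7 its rodent copy. Aldh1a1 ranged from 626 CPM in WT corn oil to 1461 in hCAR/hPXR CITCO, where it was at 1461, 1426 and 809. Its mean was 763 ± 158 CPM in WT mice on corn oil and 991 ± 256 on CITCO, 1232 ± 366 in hCAR/hPXR mice and 979.9 ± 209.5 in Car KO/hPXR mice (SD, n = 3). Aldh1a7 had means of 288 ± 20.6, 262 ± 52.5, 292 ± 59.3 and 319.9 ± 31.5 CPM in the same order. All groups overlapped for both genes, and the lowest unadjusted p over the 4 comparisons was 0.133 for Aldh1a1 and 0.117 for Aldh1a7.

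Aldh1l1 encodes the cytosolic enzyme that oxidises formyltetrahydrofolate. Its level was 512, 430.1 and 356 CPM in WT corn oil, 384, 361 and 408 in WT CITCO, 304, 315 and 361 in hCAR/hPXR CITCO and 629, 415 and 486 in Car KO/hPXR CITCO. All 3 Car KO/hPXR libraries were above the WT CITCO libraries and above the hCAR/hPXR libraries. For hCAR/hPXR over Car KO/hPXR the log2 fold change was -0.64 ± 0.17, from a mean of 510.1 CPM to 327, and edgeR's quasi-likelihood test put its adjusted p at 0.118. This was the lowest adjusted p among the 9 genes that did not pass. By DESeq2 the same difference passed (log2 fold change -0.66, adjusted p = 0.0126). For Car KO/hPXR over WT CITCO the value was 0.41 ± 0.17 (edgeR, adjusted p = 0.469).

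Aldh3a2 encodes the fatty aldehyde dehydrogenase of the endoplasmic reticulum and peroxisome, which oxidises long-chain aldehydes from fatty alcohols, phytol and sphingolipids. It was at 104, 83.9 and 141 CPM in WT corn oil, 142, 124 and 169 in WT CITCO, 74.1, 74.1 and 48.4 in hCAR/hPXR CITCO and 85.8, 106 and 83.8 in Car KO/hPXR CITCO. The hCAR/hPXR libraries were lower than each of the other 9 libraries, and the Car KO/hPXR libraries were lower than the WT CITCO libraries but overlapped those of corn oil. Over WT CITCO, Aldh3a2 fell in hCAR/hPXR mice by 1.13 on the log2 scale (95% interval -1.58 to -0.69, edgeR, adjusted p = 0.0185), which is 2.19-fold lower, and it ranked 20 of the 8594 genes by p. The study lists Aldh3a2 among genes it selected by their change in these same samples, so the call is not independent evidence. The call was lost when WT CITCO replicate 1, WT CITCO replicate 3 or hCAR/hPXR replicate 3 was left out (log2 fold changes -1.15, -1.01 and -0.97, adjusted p = 0.0768, 0.0808 and 0.117), and it held without each of the other 3.

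For Car KO/hPXR over WT CITCO the log2 fold change of Aldh3a2 was -0.66 ± 0.21 (edgeR, adjusted p = 0.256), with no overlap of the libraries. For hCAR/hPXR over Car KO/hPXR it was -0.47 ± 0.22 (adjusted p = 0.448), again with no overlap. The test of both humanised genotypes against each other therefore did not show a difference between them for Aldh3a2. In the test over the 4 groups Aldh3a2 had an adjusted p of 0.0373 (edgeR, quasi-likelihood F test), 1 of 122 genes, or 1.42% of those tested. It was the only one of the 10 that passed, and 4 of the 10 had an unadjusted p under 0.05 (11.6% of all genes); this call was lost without any of 8 of the 12 libraries, on library totals (adjusted p = 0.0712) and with the replicate block (adjusted p = 0.066).

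Levels of other gene lists were set beside these values. The summed CPM of 24 acute phase genes was 21276 to 41908 in hCAR/hPXR CITCO and 14665 to 23345 in WT CITCO, which overlapped. Of the 24, 22 had positive log2 fold changes between these groups, and 17 an unadjusted p under 0.05 (8.81% of all genes). By edgeR 2 passed (0.407% of all genes), and by DESeq2, which passed more of all genes in each comparison, 5. In WT CITCO over corn oil 20 of the 24 were positive (median 0.59), and 2 passed by edgeR (0.233% of all genes) and 2 by DESeq2. The 2 by edgeR were Saa1 and Saa2, and the libraries of both overlapped. In Car KO/hPXR over WT CITCO 20 of the 24 were negative (median -0.22, where 50.5% of all genes were negative). There 0 passed by edgeR and 3 by DESeq2. In hCAR/hPXR over Car KO/hPXR 23 of the 24 were positive (median 0.86), and 5 passed by edgeR (0.582% of all genes) and 10 by DESeq2. The summed level of 6 leukocyte markers was 82.4 to 117 CPM in hCAR/hPXR CITCO against 38.9 to 71.9 in WT CITCO. S100a8, a neutrophil gene, was the 1 of 4 tested that passed between them by edgeR (0 by DESeq2). All 14 tested PPAR alpha target genes had negative values in hCAR/hPXR over WT CITCO (median log2 fold change -0.28, where 48.4% of all genes were negative), although 0 passed edgeR's test, 3 having an unadjusted p under 0.05, and DESeq2 passed 1. In Car KO/hPXR over WT CITCO 12 of the 14 were negative (50.5% of all genes were), with a median of -0.31. There 0 of the 14 passed by edgeR or DESeq2, and 1 had an unadjusted p under 0.05 by edgeR (9.3% of all genes). The list's summed level was 4847, 4964 and 3790.1 CPM in hCAR/hPXR CITCO and 4979, 5184 and 7021 in WT CITCO. The summed hepatocyte markers of these 2 groups overlapped, at 16876 to 30549 CPM in hCAR/hPXR CITCO against 23158 to 28861 in WT CITCO. The part of these measures in the level of Aldh3a2 was not tested, and in bulk liver fewer cells of a type and less RNA per cell cannot be told apart.

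Akr1c6 encodes an aldo-keto reductase of the steroid dehydrogenase family. It was at 444, 555 and 329 CPM in WT corn oil, 509, 519.96 and 618 in WT CITCO, 412, 499.9 and 459.6 in hCAR/hPXR CITCO and 501, 539 and 411 in Car KO/hPXR CITCO. The hCAR/hPXR libraries were all under the WT CITCO libraries, the nearest by under 10 CPM, and both groups lay within the range of corn oil apart from the highest WT CITCO library. The log2 fold change between them was -0.26 ± 0.18 (edgeR, adjusted p = 0.729).

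**Figure D2:**
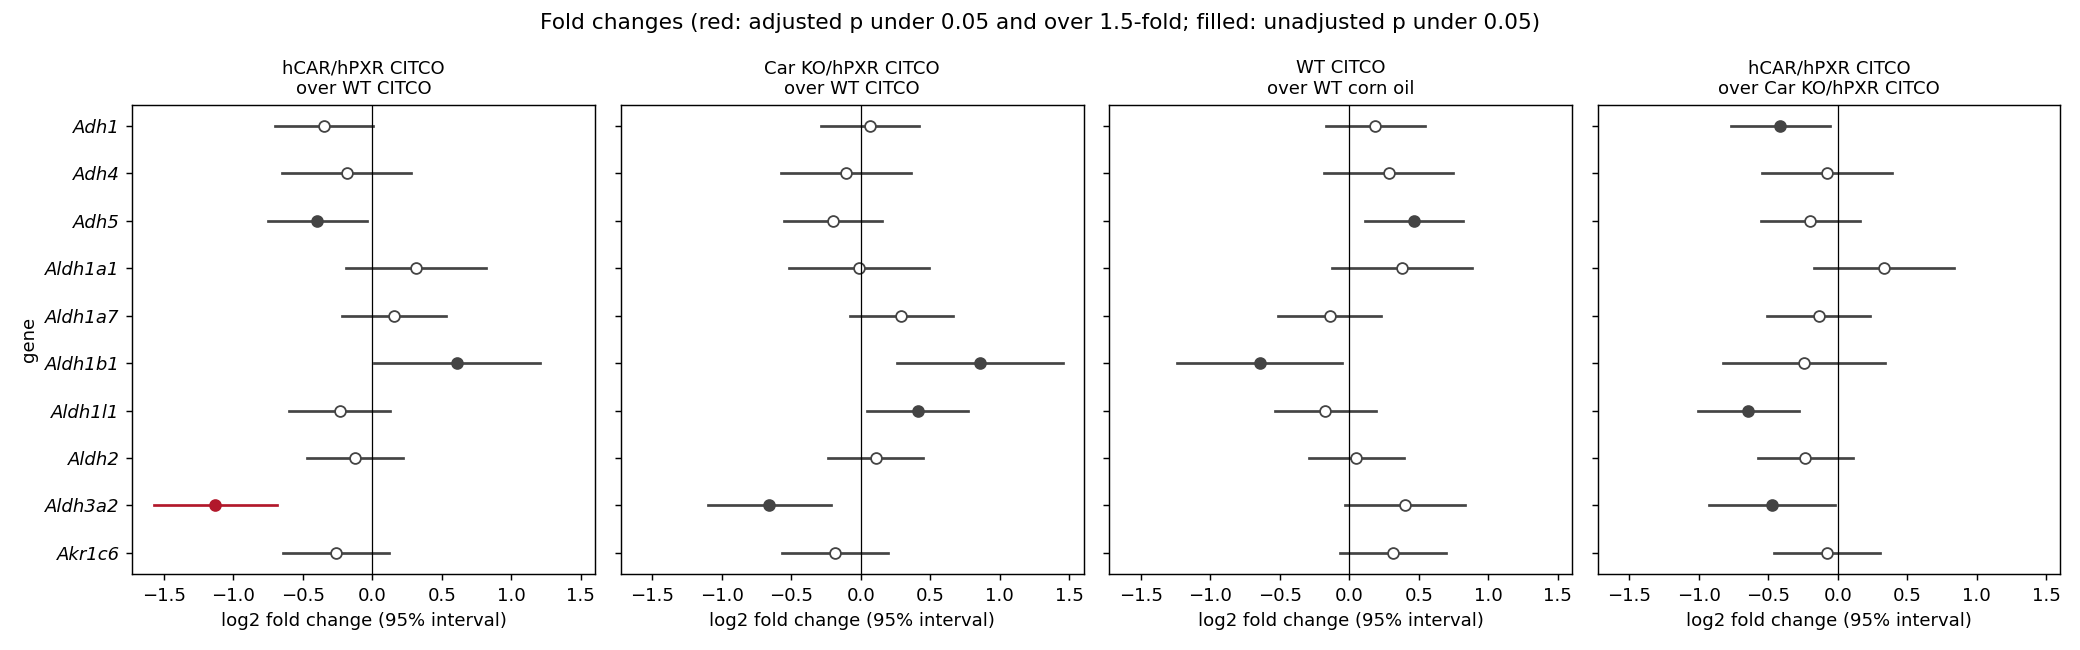
Log2 fold changes of the 10 genes with 95% intervals, in 1 panel for each of the 4 comparisons; red marks the value that passed the test (adjusted p under 0.05 and over 1.5-fold) and filled points have an unadjusted p under 0.05. Aldh3a2 in hCAR/hPXR over WT CITCO, at -1.13, is the single red point, and 9 of the 10 points lie left of 0 in hCAR/hPXR over Car KO/hPXR.

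hCAR/hPXR over WT CITCO asks how mice with the human receptors differ from WT mice under the same compound. Of the 10 genes 1 passed, and it was lower, where 0.407% of all genes passed and 0.151% passed as lower. The libraries did not overlap for 3 of the 10, all lower (Adh5, Aldh3a2 and Akr1c6), against 6.53% of all genes that were lower without overlap, and 3 had an unadjusted p under 0.05 against 8.81%. The median log2 fold change was -0.21, with 7 of 10 negative, against 0.01 and 48.4% negative for all genes.

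Car KO/hPXR over WT CITCO is the same comparison without CAR of either species. By edgeR 0 of the 10 passed (0.256% of all genes passed), 3 had an unadjusted p under 0.05 (9.3% of all genes) and 0 passed DESeq2. Aldh1b1 and Aldh1l1 were higher without overlap (7.45% of all genes) and Aldh3a2 was lower (6.77%), and 5 values were positive and 5 negative (50.5% of all genes) around a median of 0.02. WT CITCO over WT corn oil addresses what CITCO does where mouse Car and Pxr are present. By edgeR and by DESeq2 0 of the 10 passed (0.233% of all genes passed by edgeR), 2 had an unadjusted p under 0.05 (9.13%), and Adh5 was the 1 gene without overlap, higher as were 6.88% of all genes. Values were negative for 3 of the 10, as for 50% of all genes, with a median of 0.23.

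hCAR/hPXR over Car KO/hPXR compares mice with and without human CAR, both with human PXR. By edgeR 0 of the 10 passed (0.582% of all genes passed) and 3 had an unadjusted p under 0.05 (10.6%). DESeq2, which passed more of all genes, passed 1 of the 10, Aldh1l1. Adh1, Aldh1l1 and Aldh3a2 were lower without overlap, against 7.06% of all genes, and 9 of the 10 values were negative, where 48.5% of all genes were, with a median of -0.22. These comparisons share their WT CITCO, hCAR/hPXR or Car KO/hPXR libraries and are not independent of each other.

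The order of the group means differed from gene to gene. Car KO/hPXR CITCO was highest for Adh1, Aldh1a7, Aldh1b1, Aldh1l1 and Aldh2, WT CITCO for Adh4, Adh5, Aldh3a2 and Akr1c6, and hCAR/hPXR CITCO for Aldh1a1. The ratio of the highest to the lowest mean ran from 1.18 for Aldh2 to 2.21 for Aldh3a2. In 9 of the genes each group overlapped its neighbour in that order, and for Aldh3a2 the lowest pair, Car KO/hPXR and hCAR/hPXR, did not overlap.

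Over the 12 libraries the 10 genes did not move as a block. Of their 45 pairs 27 had a positive Pearson r of log2 CPM, the median was 0.14, and 4 exceeded 0.5. Adh1 and Aldh2 were the most alike (r = 0.78, and 0.68 within groups), followed by Adh1 with Adh4 (0.63) and Adh1 with Aldh3a2 (0.60). Aldh1b1 and Aldh3a2 were the most opposed, with r = -0.66 over the libraries and -0.80 within groups. These points share libraries and their normalisation, and the values are a description.

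**Figure D3:**
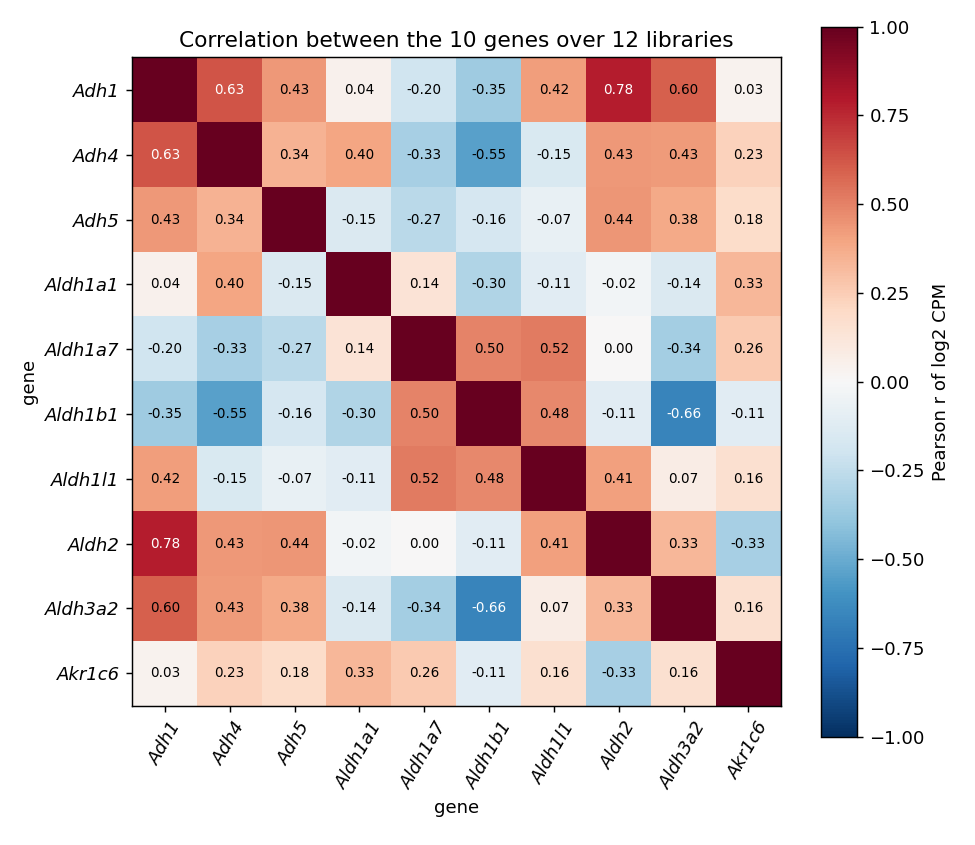
Pearson r of log2 CPM between the 10 genes over 12 libraries, as a square of pairs coloured from blue (-1) through white (0) to red (1). The highest value is 0.78 for Adh1 with Aldh2 and the lowest -0.66 for Aldh1b1 with Aldh3a2.

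Of all genes tested, the 2 most like Aldh3a2 over the 12 libraries were Acsl1 (r = 0.90) and Fabp1 (0.90). They encode a long-chain acyl-CoA synthetase and the liver fatty acid binding protein. Acsl1 had means of 583 CPM in WT mice on corn oil, 688 on CITCO, 428 in hCAR/hPXR mice and 478 in Car KO/hPXR mice. In the same order Fabp1 had means of 3075, 3685, 2425 and 3265 CPM. They were chosen for following Aldh3a2 over these same libraries, so that a like group pattern was built into the choice. Both were lowest in hCAR/hPXR CITCO and lower there than in WT CITCO without overlap. Their log2 fold changes for hCAR/hPXR over WT CITCO were -0.68 and -0.60, and neither passed (edgeR, adjusted p = 0.118 and 0.172). By DESeq2 Fabp1, one of the hepatocyte markers listed, passed. Acsl1 is in none of the gene lists used here, and its DESeq2 result was not looked up. The study's own DESeq2 test of these samples lists Acsl1 as lower in hCAR/hPXR than in WT mice on CITCO.

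**Figure D4:**
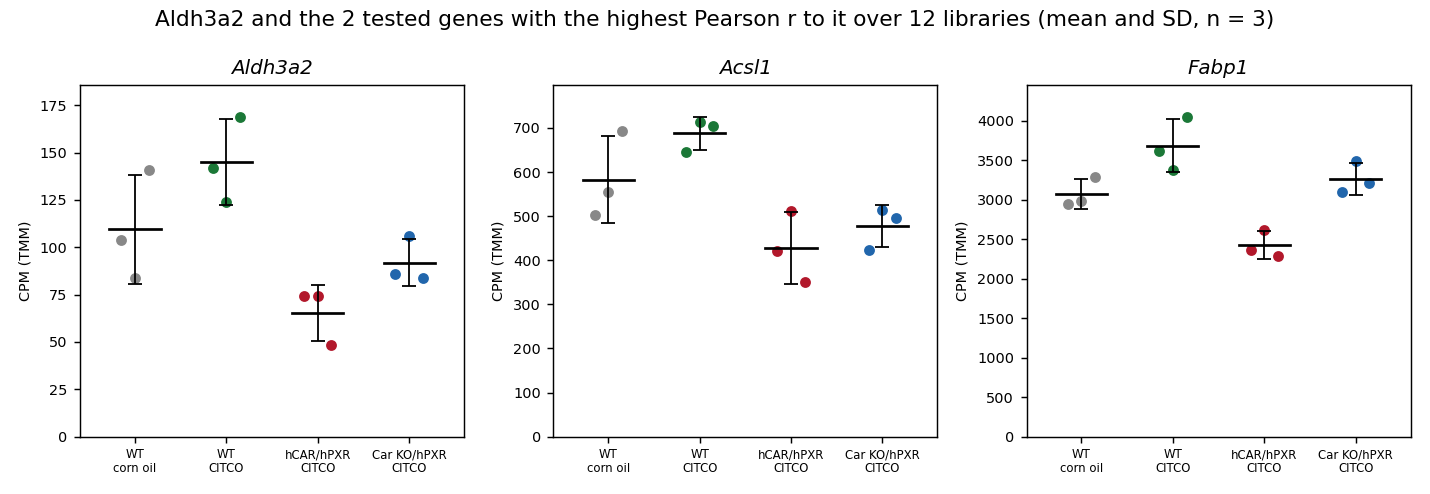
Aldh3a2 beside Acsl1 and Fabp1, the genes most correlated with it, in CPM on axes that start at 0; points are libraries, and bars and whiskers the mean and SD of 3. In each panel the hCAR/hPXR CITCO mean is the lowest, at 65.5, 428 and 2425 CPM.

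Genes of the neighbouring pathways were taken from 8 lists with 110 genes, of which 79 were tested. Of the 79, 1 passed in hCAR/hPXR over WT CITCO (1.27%), 2 in Car KO/hPXR over WT CITCO (2.53%), 0 in WT CITCO over corn oil (where 10 had an unadjusted p under 0.05 by edgeR) and 2 in hCAR/hPXR over Car KO/hPXR (2.53%). The shares over all genes tested were 0.407%, 0.256%, 0.233% and 0.582%. These shares are those of edgeR. By DESeq2, which passed more of all genes in each comparison, the counts were 3, 4, 1 and 2. The calls by edgeR belonged to 3 genes: the retinol dehydrogenases Rdh16 and Rdh11, and Acss2, which makes acetyl-CoA from acetate in the cytosol and nucleus.

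Rdh16 was at 71.7, 69.1 and 74.3 CPM in WT corn oil, 38.9, 44.3 and 69.7 in WT CITCO, 25.4, 26.0 and 13.3 in hCAR/hPXR CITCO and 55.3, 66.0 and 61.6 in Car KO/hPXR CITCO. The hCAR/hPXR libraries were the lowest of all. Rdh16 fell by 1.20 on the log2 scale in hCAR/hPXR over WT CITCO (edgeR, adjusted p = 0.0433) and by 1.46 over Car KO/hPXR (adjusted p = 0.0114). The first call was lost without any of 5 of the 6 libraries compared, all but WT CITCO replicate 1, with log2 fold changes of -1.34 to -0.91, and also in a fit of only those 6 (adjusted p = 0.148), on library totals (adjusted p = 0.0714) and with the replicate block (adjusted p = 0.0789). The call over Car KO/hPXR was lost without hCAR/hPXR replicate 3 (adjusted p = 0.0517) or Car KO/hPXR replicate 3 (adjusted p = 0.0622).

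Rdh11 was at 75.2, 83.9 and 106 CPM in WT corn oil, 46.7, 27.0 and 63.3 in WT CITCO, 66.8, 77.5 and 80.1 in hCAR/hPXR CITCO and 121, 114 and 99.4 in Car KO/hPXR CITCO. The WT CITCO libraries were under all others. The log2 fold change of WT CITCO over corn oil was -0.95 (edgeR, adjusted p = 0.138), and DESeq2 passed it. That of hCAR/hPXR over WT CITCO was 0.71 (edgeR, adjusted p = 0.315), and the study lists Rdh11 as higher there. In Car KO/hPXR over WT CITCO Rdh11 rose by 1.29 on the log2 scale (edgeR, adjusted p = 0.0297), a call lost without WT CITCO replicate 1 or 2 or without any of the Car KO/hPXR libraries, with adjusted p-values up to 0.198.

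Acss2 was at 84.6, 123 and 94.2 CPM in WT corn oil, 51.9, 51.9 and 80.2 in WT CITCO, 36.3, 42.8 and 40.9 in hCAR/hPXR CITCO and 180, 104 and 152 in Car KO/hPXR CITCO. The hCAR/hPXR libraries were the lowest, and 2 of the Car KO/hPXR libraries the highest. Acss2 rose by 1.25 in Car KO/hPXR over WT CITCO (edgeR, adjusted p = 0.0248), which was lost without WT CITCO replicate 1 or 2 or Car KO/hPXR replicate 1 or 3 (adjusted p up to 0.198). It fell by 1.87 in hCAR/hPXR over Car KO/hPXR (adjusted p = 0.000597), and that call held without each library (adjusted p up to 0.00867).

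**Figure D5:**
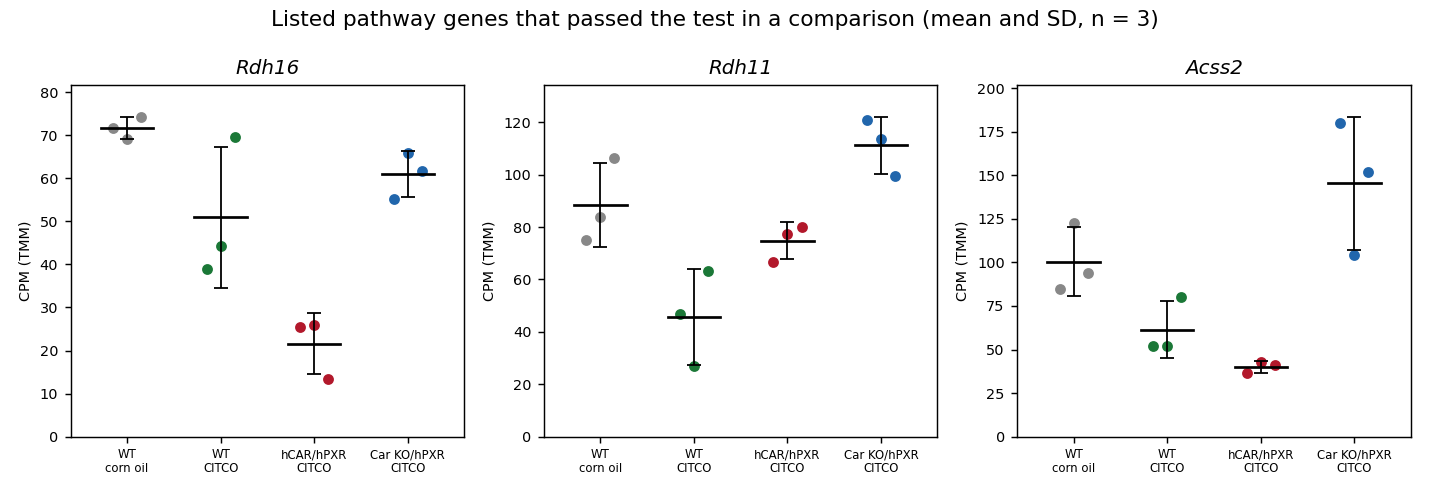
The 3 listed pathway genes that passed the test in a comparison, in CPM on axes that start at 0; points are libraries, and bars and whiskers the mean and SD of 3. Rdh16 and Acss2 are lowest in hCAR/hPXR CITCO, at means of 21.6 and 40.0 CPM, and Rdh11 is lowest in WT CITCO, at 45.7 CPM.

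In the lists themselves, 1 of 21 retinoid handling genes and 0 of the genes of the other lists passed edgeR's test in hCAR/hPXR over WT CITCO, and DESeq2 passed Hsd17b11 and Hsd17b10 of those. Among them, 0 of 3 other alcohol dehydrogenases, 1 of 7 other aldehyde dehydrogenases and 3 of 10 other aldo-keto reductases had an unadjusted p under 0.05 there (8.81% of all genes did), with medians of the log2 fold change of -0.12, -0.10 and -0.17. The counts were 4 of 21 for retinoid handling (median -0.20), 2 of 4 for ethanol and acetate (-0.55) and 1 of 13 for one-carbon folate and formaldehyde (0.04). They were 3 of 8 for fatty aldehyde and sphingolipid breakdown (-0.07), where Hsd17b11 came nearest with a log2 fold change of -0.78 (edgeR, adjusted p = 0.0567), and 1 of 13 for steroid dehydrogenases (-0.18). Hsd17b11 and Hsd17b10 were named after their values were seen.

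Markers of zones and other liver cells were set beside these values. In hCAR/hPXR over WT CITCO the medians of the log2 fold change were -0.15 for 7 pericentral, 0.20 for 7 periportal and 0.15 for 9 Kupffer cell markers. They were -0.13 for 7 endothelial, -0.24 for 5 stellate and -0.54 for 5 red blood cell markers. Of all these markers 0 passed by edgeR or DESeq2, and 8 had an unadjusted p under 0.05 by edgeR (8.81% of all genes). Of the 8, 3 were red blood cell markers, all 5 of which had negative values. The study's own DESeq2 test lists the red blood cell markers Hba-a2 and Hbb-bs as lower in this comparison. The 1 tested cholangiocyte marker was at 0.43. Their part in the levels of the 10 genes was not tested.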

How the data were processed

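RNAseq of liver from 12 male mice was analysed, 3 in each of 4 groups named by the sample labels. The authors prepared QuantSeq 3' libraries for Ion Torrent, trimmed the reads with Trimmomatic, aligned them with STAR 2.5.2 to Ensembl's GRCm38 and used RSEM 1.3 to estimate expression, and the authors deposited its expected counts for 51912 genes. They also deposited values on a log2 scale for 17859 genes, made with the variance-stabilising transformation of DESeq2. Reads from 3' ends make counts independent of transcript length, but levels of different genes were not compared.

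Expected counts were rounded to whole numbers, filtered by edgeR's expression filter (8594 genes) and normalised by TMM, and CPM are counts scaled to TMM library sizes. Genes were tested with edgeR 4.0.16 (R 4.3.3), quasi-likelihood test, two-sided, on all 12 libraries with 1 mean per group and Benjamini-Hochberg adjustment over all genes tested. A gene passed at an adjusted p under 0.05 and a fold change over 1.5, or, in the F test over the 4 groups, at an adjusted p under 0.05. There were 4 pairwise comparisons. The standard error is the log2 fold change over the square root of F, and intervals are 95%. Depth was 1167008 to 2341557 counts per library. The pipeline was tested on simulated data. Exact permutation of 3 against 3 cannot go below 0.1 and is not printed.

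Alternatives were other size factors, library totals, DESeq2 1.42.0, limma 3.58.1 on the deposited values, no filter or a stricter filter on counts, a fit restricted to the 6 libraries of a comparison, the replicate number as a block, and leaving out each library. A further setting kept the main fit and dropped only the fold limit. The genes and lists were chosen with earlier results of these data known. Named genes were the 10 genes, list genes that passed in a comparison, the 3 genes most correlated with a gene of the 10 whose adjusted p was under 0.05, and Nr1i2, Nr1i3 and Cyp2b10. Of the genes this rule names, 1 is not reported here. Fold changes are printed where a p was under 0.05 or the libraries did not overlap. 0 columns of the tables were left unmatched.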

Additional observations from a re-analysis of the deposited data

Results flagged for a closer look

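The effects of the humanised genotypes relative to WT CITCO differed for 2 of the listed pathway genes by the direct test of hCAR/hPXR against Car KO/hPXR. For Acss2 the effect was -0.62 in hCAR/hPXR and 1.25 in Car KO/hPXR on the log2 scale, a difference of -1.87 (edgeR, adjusted p = 0.000597), with all 3 hCAR/hPXR libraries lower than all 3 of Car KO/hPXR. For Rdh16 it was -1.20 and 0.26, a difference of -1.46 (edgeR, adjusted p = 0.0114), again in 3 of 3 libraries. Both genes were picked for passing this test, so the lack of overlap is not further evidence. Of all genes, 7.06% were lower without overlap. None of the 10 dehydrogenase and reductase genes met this test by edgeR. Groups of 3 are too small for a rule that flags single outlying libraries. With each library compared left out in turn, the Acss2 call held in 6 of 6 fits and the Rdh16 call in 4 of 6.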

How the results depend on the processing

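With 3 mice per group, small changes of the 10 genes could not be told from the spread between mice. The fall of Aldh3a2 in hCAR/hPXR over WT CITCO kept its direction under all 16 alternatives (log2 fold change -1.25 to -0.90) and passed in 13, the exceptions being 3 single libraries left out. Of the 16, 1 was the main fit with its fold limit dropped, in which this result could not change. None of the 17 fold changes of a gene in a comparison that were refitted changed sign (those of Adh4, Aldh1a1, Aldh1a7, Aldh2, Acsl1 and Fabp1 and the list medians were not refitted). The median of all genes moved by under 0.1 with the scaling, and in hCAR/hPXR over WT CITCO was -0.0038 with median-of-ratios size factors. Genes passing numbered 35, 22, 20, 50 and 122 in hCAR/hPXR over WT CITCO, Car KO/hPXR over WT CITCO, WT CITCO over corn oil, hCAR/hPXR over Car KO/hPXR and the 4 groups. They were 63, 69, 41, 96 and 207 by DESeq2 and 184, 227, 179, 233 and 540 with no filter on low counts, and the second was 40 in a fit of only the 6 libraries compared; the cause was not tested. Leaving out 1 library gave 17 to 32, 5 to 58, 6 to 54, 10 to 58 and 60 to 160. Of the 10 genes, 1 passed in hCAR/hPXR over Car KO/hPXR by DESeq2 and 1 with no filter (Aldh1l1 both times), 1 in Car KO/hPXR over WT CITCO with no filter (Aldh1b1), and in the 4 groups 2 with no filter (Aldh3a2 and Aldh1b1) and 0 on library totals. Leaving out 1 library gave 0 to 1 in hCAR/hPXR over WT CITCO and 0 to 1 in the 4 groups. All 40 group means moved by under 1 SD on library totals.

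The deviations of samples with the same replicate number correlated weakly at most (18 correlations of -0.057 to 0.075, 0 over 0.1). Yet 9 of 12 libraries correlated best with their own number, a hint from the data and not the design. Whether the number marks a shared step of handling cannot be told from these values. With the replicate block 33, 24, 20, 53 and 108 genes passed, and of the 10 genes 1 in hCAR/hPXR over WT CITCO (Aldh3a2 at -1.12 on the log2 scale, with an adjusted p of 0.0325 from edgeR) and 0 in the 4 groups (Aldh3a2, adjusted p = 0.066).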
